A study of Mus musculus with 12 samples.

Results

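The 37 genes described here are genes of the monocyte and macrophage lineage: chemokine and Fc receptors, pattern recognition receptors, lysozymes, cathepsins, phagosome proteins and the complement C1q chains. They were taken as a named list from the 18193 genes that single-symbol probe sets of the array represent, with the probe set of the highest mean over the 12 arrays standing for each gene. Of the 37, 29 had a mean log2 signal above the 5.10 set as the filter on dim probe sets and entered the tests, among 12918 genes in all. The other 8 (Itgam, Mrc1, Aif1, Clec4a2, Clec4n, C1qa, C1qb and C1qc) lay below it.

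The study asked how INV16 changes gene expression in primitive blood progenitors. INV16 is the leukaemia fusion protein CBFβ-SMMHC, in which the RUNX partner CBFβ is joined to a smooth muscle myosin tail. All groups began as normal mouse bone marrow sorted for c-Kit+ Sca-1+ cells that carried neither lineage markers nor Flt3 (written KSLF in the design text and KLSF in the sample titles), grown in 10% serum with SCF at 50 ng/ml and IL-6 at 5 ng/ml. The MIB control group (5 arrays, replicates 3 to 7) received the empty retroviral vector, the INV16 group (4 arrays, replicates 1 to 4) the vector with INV16, and the ACD mutant group (3 arrays, replicates 1 to 3) INV16 lacking its assembly competence domain, a form that does not cause leukaemia. Cells were cultured for 24 h, exposed to virus for 4 h, cultured for 20 h more and sorted for the GFP of the vector. Sorting, transduction and array were done anew for each replicate, every group carried a retrovirus, and INV16 was expressed from the vector; the strain and age of the mice are not given in the sources used here. The measurements therefore describe the first day after transduction.

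Monocytes arise from bone marrow progenitors under the factors PU.1 (Spi1), IRF8 and C/EBPα and the CSF1 receptor, and mature in tissues into macrophages. Their typical genes serve to find and take up particles. Activating Fc receptors signal through the ITAM adaptor Fcer1g, and Tyrobp is the ITAM adaptor of many myeloid receptors. Toll-like receptors and C-type lectins recognise microbial surfaces, and lysozymes, cathepsins and perforin-2 (Mpeg1) act on what has been engulfed. Progenitors committed to the granulocyte and monocyte lineages already transcribe part of this set. In bulk RNA of this kind, fewer cells of a type and less RNA per cell cannot be told apart.

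The 12 arrays had medians between 5.62 and 5.79 log2 units, so their overall levels were close. The bacterial spike-in probe sets split them: BioC minus BioB was 1.07 to 1.21 on spike-in set A, which holds INV16 replicates 1 to 3 with the first 3 of the control arrays (replicates 3 to 5), and -0.11 to 0.07 on spike-in set B, which holds the ACD mutant arrays, control replicates 6 and 7 and INV16 replicate 4. The labels do not say what the sets are. The MIB control group lies in both, so comparisons with it can be made within a set, but INV16 and ACD mutant cannot be told apart from the sets when set against each other. Set B was itself uneven. BioB read 7.49, 7.42 and 7.13 on ACD mutant replicates 1 to 3. On MIB control replicates 6 and 7 it read 8.57 and 8.76. That difference remains in comparisons within set B, and its part in them was not tested. INV16 replicate 4 stands apart: its mast cell genes Cma1 and Fcer1a read 12.70 and 13.31, and it lay outside the range of the other 11 arrays for 73.0% of all genes tested. The progenitor markers Kit and Cd34 read 10.26 to 11.43 and 11.15 to 12.35 on the other 11 arrays, and Cd34 7.39 on this one. INV16 replicate 4 was therefore kept out of the group means and is given singly. Of the members, 2 of 29 (Fcgr3 and Tyrobp) were higher on every array of set B than on every array of set A, against 5.61% of all genes tested, and 0 were lower on every one, against 1.41%.

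The 8 members below the filter include several markers of macrophages, while other such markers were above it. Itgam, the integrin CD11b, read 4.11 to 5.33 over the 11 arrays without INV16 replicate 4. The mannose receptor Mrc1 read 4.46 to 4.91, Aif1, an actin-binding protein of macrophages, 4.48 to 4.74, and C1qa, C1qb and C1qc, the chains of the first complement component, 4.64 to 5.01, 3.50 to 3.73 and 4.04 to 4.67. The probe sets for Ccr2, Tyrobp, Fcer1g, Ctss, Lyz1 and Lyz2 were above the filter level on all 11 of these arrays. So were Adgre1 (F4/80), at 6.22 to 7.14, and Cd68, at 7.74 to 9.24, so the macrophage markers of the set did not all stand on one side of the filter.

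**Figure D1:**
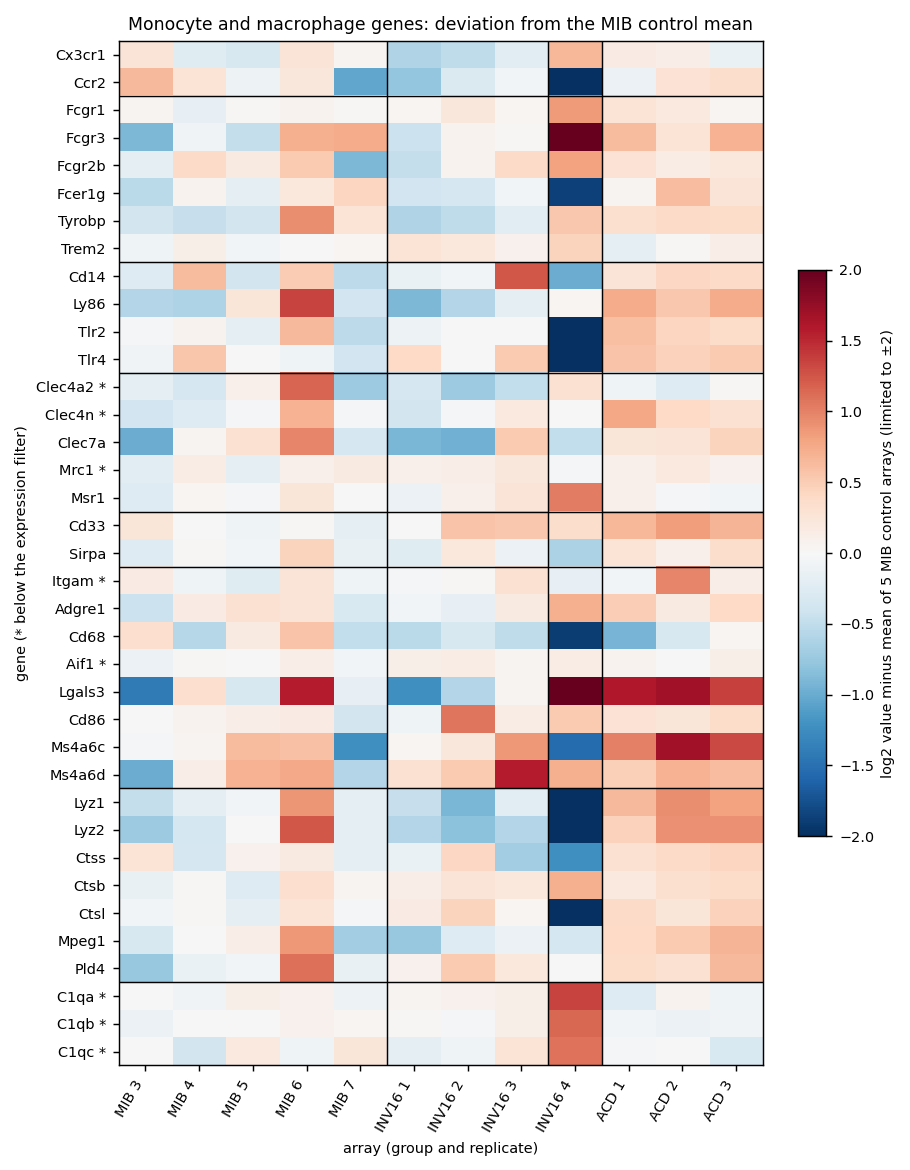
Difference of each of the 37 genes from its MIB control mean (log2, colour scale limited to 2 in either direction) on each of the 12 arrays, with genes in rows and arrays in columns; an asterisk marks the 8 genes below the filter. MIB control replicate 6 and the 3 ACD mutant arrays are above the MIB control mean for most genes (34 of 37 on that replicate and 29, 32 and 32 on the ACD mutant arrays), and INV16 replicate 4 departs in both directions.

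With the ACD mutant set against MIB control, 1 of 29 members was called, Cd33, a sialic acid-binding receptor of myeloid cells, which rose. Across all genes tested, 1.70% were called in either direction and 0.991% as higher (limma, Benjamini-Hochberg adjusted p under 0.05), and a count of 1 is too small to be read as a result about the set. The differences leaned one way: 27 of 29 members had a higher mean on the ACD mutant arrays, against 51.4% of all genes tested, with a median of 0.36 log2 units against 0.006. Over all 37 members, including the dim ones, 31 were higher and the median was 0.35. At an unadjusted p under 0.05, 9 members were higher and none lower (10.7% of all genes tested were higher and 8.86% lower at that level), and for 4 members (Cd33, Cd86, Ms4a6c and Ctss) every ACD mutant array lay above every MIB control array, against 6.93% of all genes.

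That lean depends on which control arrays are used. Within spike-in set B, where the ACD mutant arrays meet only MIB control replicates 6 and 7, the median difference was 0.25 and 20 of 29 members were higher. Leaving out MIB control replicate 6 raised the called members from 1 to 6 (Cd33, Lgals3, Ly86, Lyz1, Lyz2 and Tlr2), against 1.73% of all genes tested. Without MIB control replicate 7 there were 2 (Cd33 and Ms4a6c) and without replicate 4 there were 2 (Cd33 and Tlr4). Over all genes tested, those fits called 591 and 155 genes, against 220 with no control array left out. With MIB control replicate 5, ACD mutant replicate 1 or ACD mutant replicate 2 left out, limma called no member, and 32, 3 and 5 genes. In those fits 7, 8 and 7 members had an unadjusted p under 0.05.

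With INV16 set against MIB control, 0 of 29 members were called by limma, while 1.70% of all genes tested were (81 genes, or 0.627%, higher and 138 lower; 103 and 115 after quantile normalisation). At an unadjusted p under 0.05 there were 2, Cx3cr1 lower and Cd33 higher, against 15.8% of all genes in either direction and 10.1% lower. The members' differences were spread about 0, with 12 higher (43.7% of all genes were), 17 lower and a median of -0.03, the same as that of all genes tested. For none of the members did the 3 INV16 arrays lie wholly above or wholly below the 5 control arrays, against 3.27% of all genes for above and 5.98% for below.

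Between INV16 and the ACD mutant, 1 of 29 members was called, Lyz1, lower with INV16, against 2.07% of all genes tested in either direction, 0.310% higher and 1.76% lower. At an unadjusted p under 0.05, 12 members were lower and none higher, against 13.4% and 5.60% of all genes. The mean was lower with INV16 for 25 of 29 members and 45.7% of all genes were higher; the median was -0.37 against -0.025 over all genes. Over all 37 members 28 were lower and the median was -0.29. Every INV16 array lay below every ACD mutant array for 13 of 29 members, against 19.2% of all genes, and above for 0, against 9.44%. With the spike-in set as a block, which joins the groups only through their MIB control arrays, the median was -0.23, 10 of 29 members were higher with INV16, and limma called 0 of them, against 0.00% of all genes, with 3 at an unadjusted p under 0.05. The 3 comparisons share arrays, so they are not separate evidence.

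**Figure D2:**
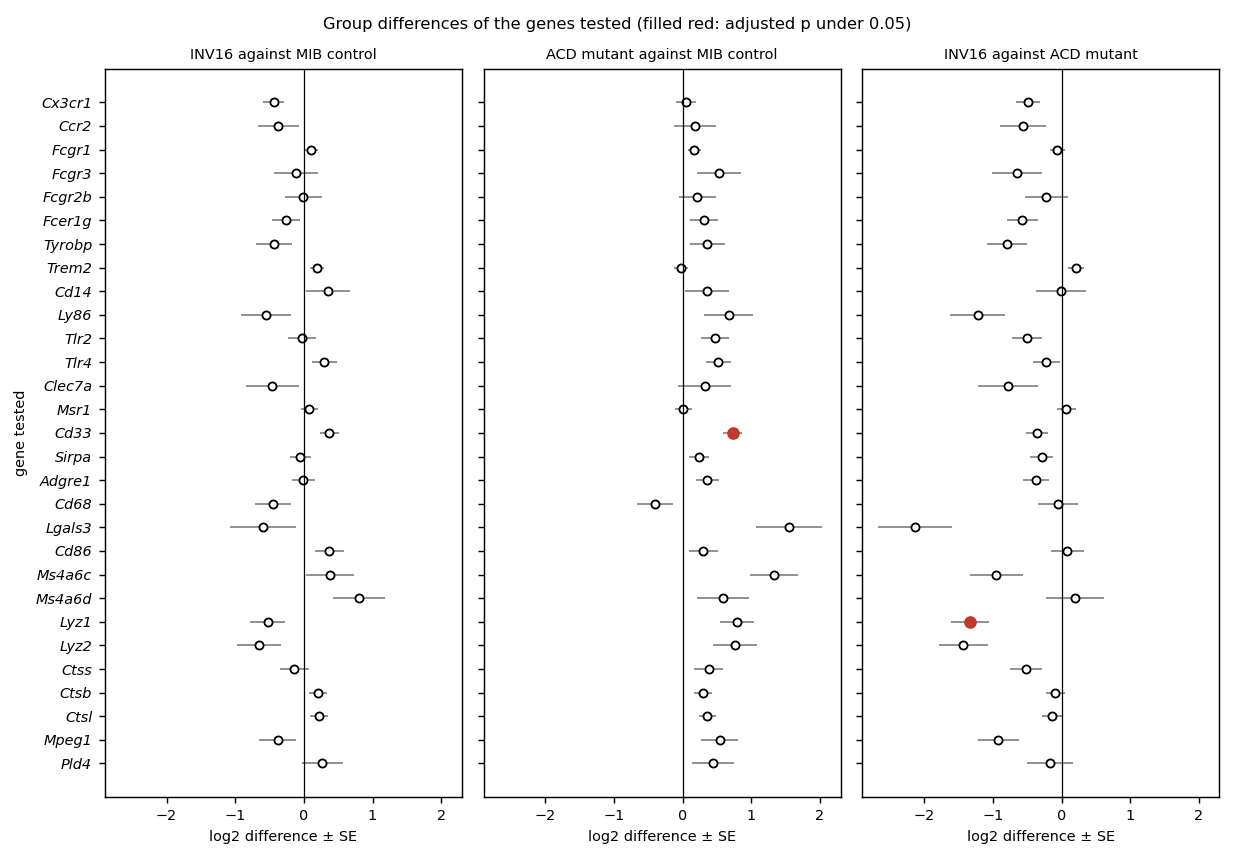
Log2 difference with its standard error for each of the 29 tested members in the 3 comparisons (INV16 against MIB control, ACD mutant against MIB control, INV16 against ACD mutant); filled red points passed an adjusted p of 0.05. The called points are Cd33 in the ACD mutant against MIB control (0.73) and Lyz1 in INV16 against the ACD mutant (-1.33).

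Among the receptors that guide and attach these cells, neither chemokine receptor was called in any comparison. Cx3cr1 is the fractalkine receptor of monocytes and macrophages. Cx3cr1 measured 5.65, 5.15, 5.08, 5.65 and 5.46 on MIB control replicates 3 to 7, 4.80, 4.89 and 5.18 on INV16 replicates 1 to 3 and 5.56, 5.53 and 5.26 on ACD mutant replicates 1 to 3. Its INV16 arrays overlapped the control arrays at 5.18, and the difference was -0.44 (SE 0.15, adjusted p = 0.187). Against the ACD mutant it was -0.49 (adjusted p = 0.147), with the 3 INV16 arrays below the 3 ACD mutant arrays. These levels lie near the filter level of 5.10. A second Cx3cr1 probe set, below the filter, gave -0.05 for INV16 against MIB control and 0.15 against the ACD mutant. Ccr2 is the receptor by which monocytes leave the marrow. Ccr2 measured 11.22, 10.85, 10.47, 10.80 and 9.53 on MIB control replicates 3 to 7, 9.80, 10.28 and 10.52 on INV16 replicates 1 to 3 and 10.46, 10.87 and 10.93 on ACD mutant replicates 1 to 3. The groups overlapped, with MIB control replicate 7 the lowest of the 11 arrays, and the differences from MIB control were -0.37 for INV16 (adjusted p = 0.596) and 0.18 for the ACD mutant (adjusted p = 0.812). The 3 other Ccr2 probe sets above the filter gave -0.52, 0.00 and -0.09 for INV16 against MIB control, so the probe sets did not share one value. For the ACD mutant against MIB control they gave -0.02, -0.10 and -0.47, opposite in sign to the 0.18 of the probe set used.

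None of the Fc receptors and ITAM adaptors was called. Fcgr3, the activating low-affinity IgG receptor, and Tyrobp (DAP12), the ITAM adaptor of many myeloid receptors, followed the spike-in sets. Fcgr3 measured 6.83, 7.67, 7.25, 8.44 and 8.48 on MIB control replicates 3 to 7, 7.30, 7.81 and 7.75 on INV16 replicates 1 to 3 and 8.37, 8.01 and 8.43 on ACD mutant replicates 1 to 3. Tyrobp measured 9.73, 9.65, 9.73, 11.03 and 10.38 on MIB control replicates 3 to 7, 9.51, 9.59 and 9.88 on INV16 replicates 1 to 3 and 10.43, 10.48 and 10.47 on ACD mutant replicates 1 to 3. MIB control replicates 6 and 7 stood with the ACD mutant arrays for both genes, and MIB control replicates 3 to 5 with the INV16 arrays. The difference between INV16 and the ACD mutant was -0.80 for Tyrobp (adjusted p = 0.159) and 0.20 with the spike-in set as a block; for Fcgr3 it was -0.65 and 0.57. Between the ACD mutant and MIB control, Tyrobp differed by 0.36 and Fcgr3 by 0.53 over all sets, and by -0.25 and -0.19 within spike-in set B. Fcer1g, the shared Fc receptor γ chain, measured 8.18 to 8.51 on INV16 replicates 1 to 3 and 8.63 to 9.18 on the ACD mutant arrays. The MIB control arrays, at 8.03 to 9.0, overlapped both. By spike-in set, Fcer1g read 8.03 to 8.64 on set A and 8.63 to 9.18 on set B without INV16 replicate 4. Its difference between INV16 and the ACD mutant was -0.57, and -0.03 with the set as a block. Between the ACD mutant and MIB control it was 0.31, and -0.01 within spike-in set B. Fcgr1, Fcgr2b and Trem2, the high-affinity IgG receptor, the inhibitory IgG receptor and a lipid-sensing DAP12 partner, were not called in any comparison, and the 6 members of this role had adjusted p-values of at least 0.394, 0.387 and 0.159 in the 3 comparisons.

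Endotoxin and Toll-like receptor genes had higher means with the ACD mutant than with the control in 4 of 4 cases, by 0.35 to 0.67, and none was called. Ly86 (MD-1), which forms a complex with the receptor RP105, measured between 5.53 and 7.5 on the MIB control arrays. Ly86 measured 5.57, 5.53, 6.39, 7.5 and 5.77 on MIB control replicates 3 to 7, 5.26, 5.57 and 5.98 on INV16 replicates 1 to 3 and 6.89, 6.69 and 6.89 on ACD mutant replicates 1 to 3. The 3 ACD mutant arrays were above the 3 INV16 arrays, and MIB control replicate 6 was above them all. The Ly86 difference between INV16 and the ACD mutant was -1.22 (SE 0.40, adjusted p = 0.125). With the spike-in set as a block it was -0.42 (adjusted p = 0.817). Its adjusted p became 0.0210, without the block, when MIB control replicate 6 was left out. That array enters only the shared spread of this comparison. Between the ACD mutant and MIB control, Ly86 differed by 0.67 over both sets and by 0.19 within spike-in set B. Tlr4 measured 6.64, 7.27, 6.70, 6.63 and 6.33 on MIB control replicates 3 to 7, 7.12, 6.71 and 7.23 on INV16 replicates 1 to 3 and 7.29, 7.18 and 7.24 on ACD mutant replicates 1 to 3. Tlr4, the endotoxin receptor, was 0.52 higher on the ACD mutant arrays than on MIB control (adjusted p = 0.129), 0.75 within spike-in set B (adjusted p = 0.0548), and 0.09 by another probe set above the filter. Cd14, its co-receptor, was 0.35 higher on average for INV16 and 0.35 for the ACD mutant (adjusted p = 0.652 and 0.611). Cd14 measured 7.73, 8.63, 7.63, 8.49 and 7.47 on MIB control replicates 3 to 7, 7.86, 7.93 and 9.23 on INV16 replicates 1 to 3 and 8.25, 8.41 and 8.37 on ACD mutant replicates 1 to 3. INV16 replicate 3 at 9.23 made most of the INV16 excess, since the difference was -0.10 without it.

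Of the lectins and scavenger receptors, Clec7a (dectin-1, a receptor for fungal glucans) measured 5.81 to 7.78 on the control arrays, 5.84 to 7.33 on INV16 replicates 1 to 3 and 7.05 to 7.25 on the ACD mutant arrays, and was not called (differences -0.46, 0.32 and -0.78). Msr1, a scavenger receptor for modified lipoproteins, stayed between 5.55 and 6.06 on the 11 arrays. Clec4a2 and Clec4n, lectin receptors of myeloid cells, lay below the filter in the mean; Clec4a2 reached 6.28 on MIB control replicate 6, and did not exceed 5.22 on the other control, INV16 replicate 1 to 3 and ACD mutant arrays.

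The Siglec Cd33 gave the one call against the control. Cd33 measured 6.63, 6.40, 6.30, 6.42 and 6.20 on MIB control replicates 3 to 7, 6.40, 6.96 and 6.93 on INV16 replicates 1 to 3 and 7.06, 7.23 and 7.07 on ACD mutant replicates 1 to 3. All 3 ACD mutant arrays lay above all 5 MIB control arrays, the INV16 arrays overlapped the control arrays, and every ACD mutant array lay above every INV16 array. The ACD mutant mean was 7.12 ± 0.10 (SD, n = 3) and the MIB control mean 6.39 ± 0.16 (SD, n = 5), a rise of 0.73 (SE 0.14, 1.66-fold, limma adjusted p = 0.0327). It was 0.81 within spike-in set B (adjusted p = 0.0466) and 0.81 with the set as a block (adjusted p = 0.0744), and 0.73 with all 12 arrays (adjusted p = 0.432). Without MIB control replicate 5, ACD mutant replicate 1 or ACD mutant replicate 2 the adjusted p was 0.0733, 0.136 and 0.183. The INV16 mean differed from MIB control by 0.37 (SE 0.14, adjusted p = 0.211). Sirpa, the receptor for the CD47 "do not eat me" signal, was 0.24 higher with the ACD mutant (adjusted p = 0.438). Another Sirpa probe set above the filter gave -0.04.

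Among the surface and cytoplasmic markers, Lgals3 and Ms4a6c differed most in size. Lgals3 is galectin-3, a β-galactoside-binding lectin of macrophages. Lgals3 measured 6.72, 8.46, 7.80, 9.70 and 7.96 on MIB control replicates 3 to 7, 6.90, 7.54 and 8.18 on INV16 replicates 1 to 3 and 9.73, 9.81 and 9.49 on ACD mutant replicates 1 to 3. The ACD mutant arrays lay above 4 of the 5 control arrays and within the reach of MIB control replicate 6, and above all INV16 arrays. The differences were 1.55 against MIB control (SE 0.48, adjusted p = 0.105) and -2.14 for INV16 against the ACD mutant (SE 0.54, a 4.40-fold lower mean, adjusted p = 0.0579), so neither was called. Within spike-in set B the first was 0.85 and with the set as a block the second was -0.96. Leaving out MIB control replicate 6 gave 1.94 for the first (adjusted p = 0.0267), and 0.0175 as the adjusted p of the second.

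Ms4a6c belongs to a family of multi-pass membrane proteins of myeloid cells. Ms4a6c measured 8.60, 8.70, 9.28, 9.23 and 7.42 on MIB control replicates 3 to 7, 8.69, 8.87 and 9.52 on INV16 replicates 1 to 3 and 9.65, 10.32 and 9.96 on ACD mutant replicates 1 to 3. Every ACD mutant array lay above every MIB control and INV16 array, the closest being MIB control replicate 5 and INV16 replicate 3. The difference from MIB control was 1.33 (SE 0.35, 2.52-fold, adjusted p = 0.0653) and 1.65 within spike-in set B (adjusted p = 0.112). MIB control replicate 7, the lowest array at 7.42, widened the control's spread, and without it the difference was 1.02 (adjusted p = 0.0308). Ms4a6d, a near neighbour in the family, had the largest difference of INV16 from MIB control, 0.80 (SE 0.38, adjusted p = 0.328). Ms4a6d measured 6.99, 8.11, 8.68, 8.74 and 7.39 on MIB control replicates 3 to 7, 8.28, 8.51 and 9.56 on INV16 replicates 1 to 3 and 8.46, 8.67 and 8.60 on ACD mutant replicates 1 to 3. Its INV16 arrays reached from 8.28 to 9.56, across control arrays from 6.99 to 8.74. Cd86, a co-stimulatory ligand for T cells, was above all control arrays on the ACD mutant arrays at 5.87 to 5.99, by 0.30 in the mean (adjusted p = 0.496), and INV16 replicate 2 was higher still at 6.69. Adgre1 (F4/80), the classical surface marker of mouse macrophages, differed by -0.01 for INV16 and 0.36 for the ACD mutant, and Cd68, a lysosomal membrane protein of macrophages, by -0.45 and -0.40 (adjusted p = 0.439 and 0.452). Adgre1 measured 6.22, 6.81, 6.96, 6.91 and 6.34 on MIB control replicates 3 to 7, 6.6, 6.49 and 6.82 on INV16 replicates 1 to 3 and 7.14, 6.83 and 7.04 on ACD mutant replicates 1 to 3. Cd68 measured 9.01, 8.10, 8.85, 9.24 and 8.18 on MIB control replicates 3 to 7, 8.14, 8.35 and 8.17 on INV16 replicates 1 to 3 and 7.74, 8.36 and 8.72 on ACD mutant replicates 1 to 3. Both genes overlapped across groups, and Cd68 was one of the 2 members whose mean was lower with the ACD mutant.

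**Figure D3:**
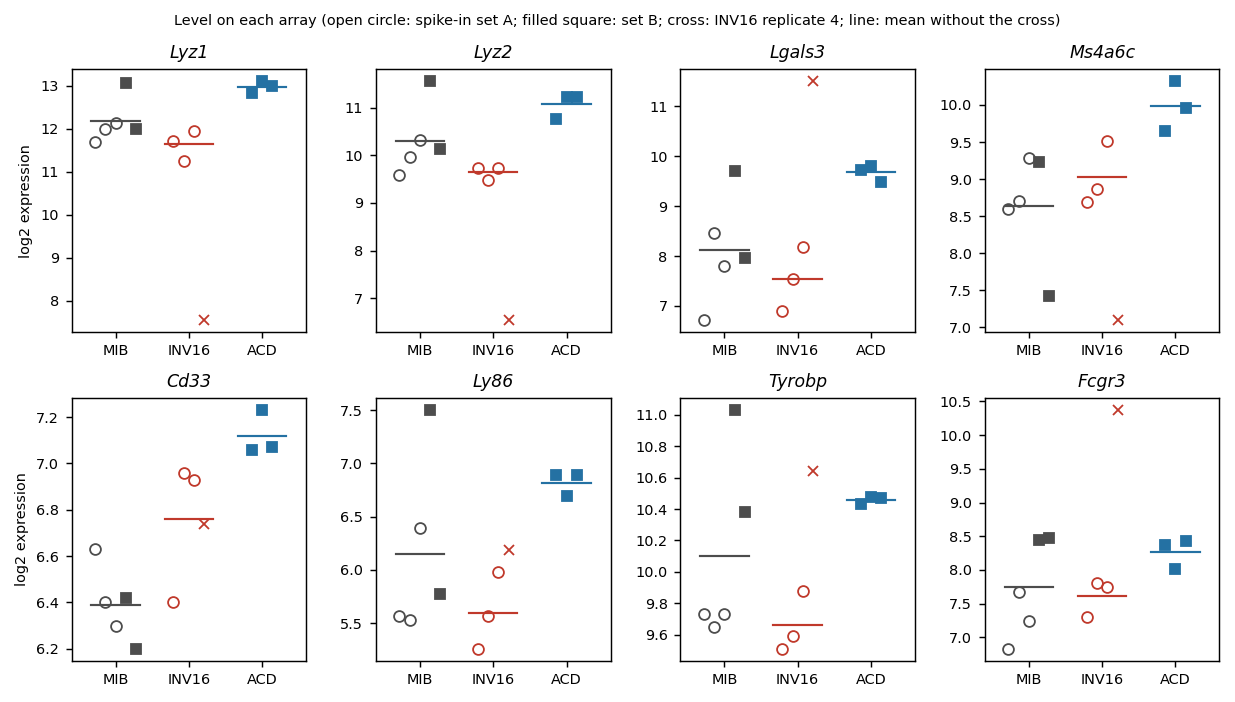
Log2 level of Lyz1, Lyz2, Lgals3, Ms4a6c, Cd33, Ly86, Tyrobp and Fcgr3 on each array by group; open circles are spike-in set A, filled squares set B, the cross is INV16 replicate 4, and the line is the group mean without the cross. All 8 are lower on INV16 replicates 1 to 3 than on every ACD mutant array, and MIB control replicate 6 reaches the lowest ACD mutant array for Lyz1, Lyz2, Lgals3, Ly86, Tyrobp and Fcgr3 but not for Ms4a6c or Cd33.

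The lysozymes gave the call between INV16 and the ACD mutant. Lyz1 and Lyz2 (lysozyme P and M) break down bacterial cell walls and are near-identical copies, so the signal of the Lyz1 probe set, of the kind that can bind several related transcripts, cannot be assigned to one gene. Lyz1 measured 11.69, 12, 12.12, 13.06 and 12 on MIB control replicates 3 to 7, 11.72, 11.26 and 11.94 on INV16 replicates 1 to 3 and 12.82, 13.10 and 12.98 on ACD mutant replicates 1 to 3. Every INV16 array lay below every ACD mutant array, and MIB control replicate 6 was above 2 of the 3 ACD mutant arrays. The INV16 mean was 11.64 ± 0.35 (SD, n = 3) and the ACD mutant mean 12.97 ± 0.14 (SD, n = 3), a difference of -1.33 (SE 0.28, 2.51-fold lower with INV16, limma adjusted p = 0.0304). A second Lyz1 probe set gave -1.22, and the remaining one, without a suffix for shared sequence, lay below the filter at 3.73 to 4.58 with a difference of -0.11. With the spike-in set as a block the value was -0.74 (adjusted p = 0.464). Leaving out INV16 replicate 1 or 2 or any 1 of the ACD mutant replicates gave adjusted p-values of 0.0702 to 0.135. Lyz2 measured 9.59, 9.96, 10.32, 11.56 and 10.14 on MIB control replicates 3 to 7, 9.73, 9.49 and 9.73 on INV16 replicates 1 to 3 and 10.77, 11.23 and 11.23 on ACD mutant replicates 1 to 3. Lyz2 was -1.43 (SE 0.36, adjusted p = 0.0585) between INV16 and the ACD mutant, again with no overlap, and -0.53 with the block; MIB control replicate 6 at 11.56 was above all ACD mutant arrays.

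Against MIB control, Lyz1 and Lyz2 differed by -0.53 and -0.66 for INV16 (adjusted p = 0.320 and 0.346) and by 0.79 and 0.76 for the ACD mutant (adjusted p = 0.104 and 0.213). Within spike-in set B the ACD mutant values were 0.44 and 0.23. The lysosomal proteases Ctss, Ctsb and Ctsl and the phagosome proteins Mpeg1 and Pld4 had higher means with the ACD mutant over both sets. All 7 members of the role did so by 0.29 to 0.79 without a call, against 51.4% of all genes tested. Within spike-in set B, Pld4 was -0.04, Ctsb 0.10, Ctsl 0.25, Ctss 0.39 and Mpeg1 0.45. The values that follow are over both sets. Ctsl was 0.36 higher (adjusted p = 0.131), Ctsb 0.29 (adjusted p = 0.219), Pld4, an endolysosomal nuclease, 0.44 (adjusted p = 0.466), Ctss lay above the control on all 3 arrays with 0.38 (adjusted p = 0.353), and Mpeg1 was 0.92 lower with INV16 than with the ACD mutant (adjusted p = 0.122). The other Ctsb probe sets gave 0.05, 0.06, 0.40 and -0.05 for the ACD mutant against MIB control. Mpeg1 measured 7.39, 7.71, 7.84, 8.57 and 7.01 on MIB control replicates 3 to 7, 6.94, 7.45 and 7.58 on INV16 replicates 1 to 3 and 8.10, 8.23 and 8.39 on ACD mutant replicates 1 to 3. The INV16 arrays of Mpeg1 were below the ACD mutant arrays, and MIB control replicates reached from 7.01 to 8.57 across both groups. Without MIB control replicate 6, the call between INV16 and the ACD mutant extended from 1 to 6 members (Lgals3, Ly86, Lyz1, Lyz2, Mpeg1 and Tyrobp), against 2.13% of all genes tested; the differences themselves did not move, since that array enters only the spread. Without MIB control replicate 3 there were 3 members (Lgals3, Lyz1 and Lyz2). Calls over all genes tested rose too in that fit, to 386 of 12918 genes from 267. INV16 replicates 1 to 3 and the ACD mutant arrays lie in different spike-in sets. With the set as a block and no control array left out, limma called 0 members. The 6 members then differed by -0.96 (Lgals3), -0.42 (Ly86), -0.74 (Lyz1), -0.53 (Lyz2), -0.78 (Mpeg1) and 0.20 (Tyrobp).

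The promoters of the members called or with the largest differences are shown so that the binding letters of the factors tied to INV16 and to monocyte fate can be read in them. RefSeq (GRCm38.p6) lists a promoter for 26 of the 37 members, and the 250 bases before the start were searched on both strands for TGTGGT or TGCGGT (RUNX/CBF), GAGGAAG (PU.1) and TTGCNNAA (C/EBP). Capitals mark a match, and a match is a description of letters. The stretches are chr10:117292869-117293118 (minus strand) for Lyz1, chr10:117282273-117282522 (minus strand) for Lyz2, chr7:43533172-43533421 (minus strand) for Cd33, chr14:47373610-47373859 (plus strand) for Lgals3 and chr19:11469118-11469367 (plus strand) for Ms4a6c, each given 5′ to 3′ on the gene's strand.
Lyz1: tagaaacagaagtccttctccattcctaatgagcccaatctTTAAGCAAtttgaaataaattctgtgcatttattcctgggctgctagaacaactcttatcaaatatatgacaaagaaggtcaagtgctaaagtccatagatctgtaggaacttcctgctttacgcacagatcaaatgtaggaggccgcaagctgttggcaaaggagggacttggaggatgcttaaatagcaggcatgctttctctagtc
Lyz2: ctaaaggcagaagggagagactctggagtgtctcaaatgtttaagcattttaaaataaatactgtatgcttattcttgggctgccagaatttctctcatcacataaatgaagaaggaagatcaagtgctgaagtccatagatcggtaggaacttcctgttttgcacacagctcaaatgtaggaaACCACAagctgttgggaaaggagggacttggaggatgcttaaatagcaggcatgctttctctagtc
Cd33: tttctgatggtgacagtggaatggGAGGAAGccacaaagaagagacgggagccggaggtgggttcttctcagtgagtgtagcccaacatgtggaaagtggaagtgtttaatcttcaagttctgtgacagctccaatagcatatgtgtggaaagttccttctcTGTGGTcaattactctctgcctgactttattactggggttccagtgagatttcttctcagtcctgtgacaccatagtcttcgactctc
Lgals3: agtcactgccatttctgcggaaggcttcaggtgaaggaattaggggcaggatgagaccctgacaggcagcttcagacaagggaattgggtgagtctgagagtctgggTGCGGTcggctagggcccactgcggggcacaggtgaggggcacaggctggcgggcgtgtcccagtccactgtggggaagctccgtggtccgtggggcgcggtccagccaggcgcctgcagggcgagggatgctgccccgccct
Ms4a6c: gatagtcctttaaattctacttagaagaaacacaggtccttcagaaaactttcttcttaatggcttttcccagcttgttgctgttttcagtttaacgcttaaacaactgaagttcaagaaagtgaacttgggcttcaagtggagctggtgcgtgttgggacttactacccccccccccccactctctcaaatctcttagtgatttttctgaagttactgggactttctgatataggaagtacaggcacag
Lyz1 holds a C/EBP match from -209 to -202, Lyz2 a RUNX/CBF match from -66 to -61, Cd33 a PU.1 match from -226 to -220 and a RUNX/CBF match from -88 to -83, and Lgals3 a RUNX/CBF match from -143 to -138, counted from the start. In this window none of the 3 motifs' letters occur in the Ms4a6c promoter. The Lyz1 and Lyz2 promoters share 200 of 248 aligned bases (80.6%). RUNX/CBF letters occur in 6 of the 26 members (23.1%) and 18.7% of the 27025 promoters listed, PU.1 letters in 7 (26.9%) against 10.4%, and C/EBP letters in 4 (15.4%) against 9.55%. No overlap between matches was found in the 5 promoters shown.

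MIB control replicates 6 and 7 were the controls that shared the spike-in set of the ACD mutant arrays, and they differed from each other in the members. Replicate 6 was the highest of the 5 MIB control arrays in 24 of 37 members (19 of 29 tested, against 19.9% of all genes), and replicate 7 was the lowest in 11 of 37 (9 of 29 tested, against 21.4%). Replicate 6 exceeded replicate 7 in 32 of 37 members, by a median of 0.57, against 0.01 over all genes tested. It was at or above the lowest ACD mutant array in 32 of 37 members (24 of 29 tested, against 68.5% of all genes) and above the highest in 19 (15 of 29 tested, against 31.9%). Replicate 7 lay below all 3 ACD mutant arrays in 27 of 37 (23 of 29 tested, against 31.2%). The members' SD over the 5 control arrays had a median of 0.51, against 0.18 for all genes.

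Marker lists of other cell types were read on the same arrays, and their part in the members' values was not tested. The mean level of the neutrophil list was 9.43 on MIB control replicate 6 and 7.93 to 8.5 on the other control arrays, 7.49 to 8.05 on INV16 replicates 1 to 3 and 8.02 to 8.33 on the ACD mutant arrays. S100a8, a calcium-binding protein of neutrophils and monocytes, read 10.28 on replicate 6 and 6.97 to 8.72 on the other controls. The megakaryocyte list averaged 9.06 on MIB control replicate 7, 8.64 to 8.90 on the ACD mutant arrays and 7.57 to 7.93 on the other control arrays. The mast cell and basophil list averaged 6.36 to 7.04 on the control arrays, 6.57 to 6.61 on INV16 replicates 1 to 3 and 6.85 to 6.95 on the ACD mutant arrays. On INV16 replicates 1 to 3 S100a8 read 5.03, 5.30 and 5.48, below every control array. It fell by 3.08 against MIB control (SE 0.55, adjusted p = 0.0144), and the difference was -2.77 within spike-in set A (adjusted p = 0.0328).

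**Figure D4:**
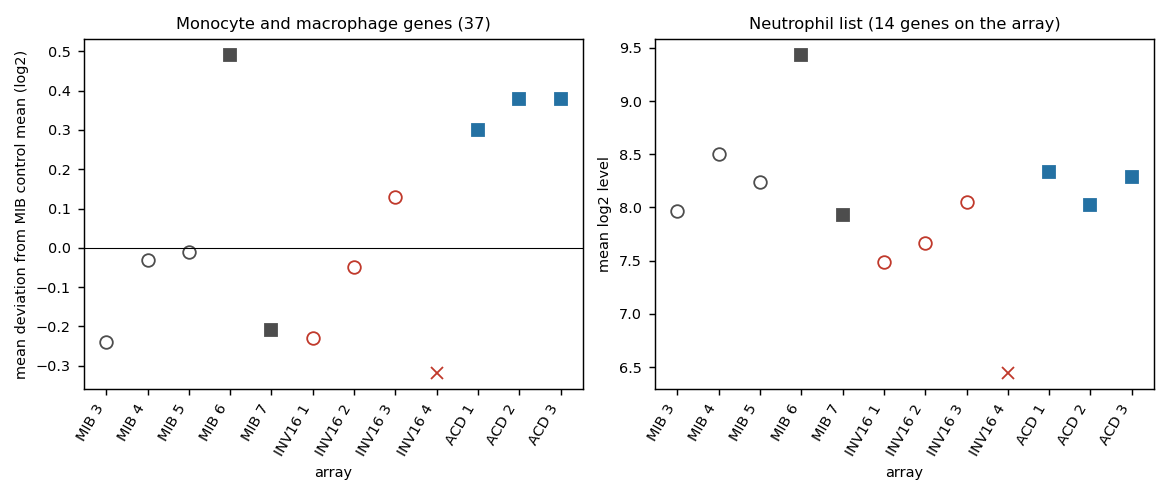
Mean deviation of the 37 members from their MIB control mean (log2, left panel) and mean level of the neutrophil list (log2, right panel) on each of the 12 arrays; open circles are spike-in set A, filled squares set B and the cross INV16 replicate 4. The members' mean deviation is 0.49 on MIB control replicate 6 and 0.30, 0.38 and 0.38 on the ACD mutant arrays, between -0.24 and -0.01 on the other control arrays, and -0.23, -0.05 and 0.13 on INV16 replicates 1 to 3.

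The surrounding pathway was described with lists of regulators and signalling genes. Of all genes tested, 1.70% were called for INV16 and 1.70% for the ACD mutant against MIB control, and 2.07% between the 2 fusions. The medians over all genes were -0.03, 0.006 and -0.025. Of 18 monocyte fate factors and CSF receptors tested, 0 were called with the ACD mutant. With it, 15 had a higher mean than MIB control (median 0.17), against 51.4% of all genes. With INV16, 1 was lower than MIB control (Cebpa) and 1 lower than the ACD mutant (Irf8). Cebpa, the transcription factor C/EBPα of the granulocyte and monocyte lineages, measured 8.47, 8.49 and 8.69 on INV16 replicates 1 to 3 and 9.01 to 9.84 on the MIB control arrays, with no overlap. It fell by 0.91 (SE 0.21, 1.88-fold, adjusted p = 0.0477), the difference was -0.70 within spike-in set A (adjusted p = 0.108), and it was called in 3 of 11 fits that left out 1 array. Irf8 measured 7.69, 7.55, 7.38, 8.62 and 7.12 on MIB control replicates 3 to 7, 6.80, 7.08 and 6.44 on INV16 replicates 1 to 3 and 8.29, 8.04 and 8.49 on ACD mutant replicates 1 to 3. Irf8, which directs progenitors to monocytes and dendritic cells, was lower on all 3 INV16 arrays than on any control or ACD mutant array, and MIB control replicate 6 was the highest of all. It was 1.5 log2 units lower with INV16 than with the ACD mutant (SE 0.30, 2.83-fold, adjusted p = 0.0259), -1.17 with the spike-in set as a block (adjusted p = 0.354), and called in 5 of 11 fits that left out 1 array.

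Of 12 ITAM and Src-family genes tested, 1 was higher with the ACD mutant than with MIB control (Pik3cg, the leukocyte PI3 kinase γ, 0.79, adjusted p = 0.0412; 0.71 within spike-in set B, adjusted p = 0.0782) and 1 lower with INV16 than with the ACD mutant (Syk, the kinase recruited by ITAMs, -1.05, adjusted p = 0.0167; -0.48 with the spike-in set as a block, adjusted p = 0.349). Syk measured 9.83, 9.80, 9.98, 10.29 and 10.59 on MIB control replicates 3 to 7, 9.56, 9.47 and 9.68 on INV16 replicates 1 to 3 and 10.68, 10.72 and 10.45 on ACD mutant replicates 1 to 3. Syk was lower on all INV16 arrays than on any other array of the 11. Of 15 Toll-like receptor genes tested, 1 was called, Tlr7, the endosomal RNA receptor, higher with INV16 than with MIB control. Tlr7 measured 5.92, 5.34, 5.53, 5.48 and 5.72 on MIB control replicates 3 to 7, 6.84, 6.98 and 6.27 on INV16 replicates 1 to 3 and 6.14, 6.33 and 6.09 on ACD mutant replicates 1 to 3. Its INV16 arrays were above all control arrays, by 1.10 in the mean (SE 0.17, 2.14-fold, adjusted p = 0.00634; 1.10 with the spike-in set as a block, adjusted p = 0.0197). The call was lost within spike-in set A (adjusted p = 0.0810) and without INV16 replicate 1 (adjusted p = 0.0601). None of 18 lysosomal genes was called in the 3 comparisons, with medians of -0.12, 0.18 and -0.25 for INV16 against MIB control, the ACD mutant against MIB control and INV16 against the ACD mutant.

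Markers of other cells the sort could hold were counted in the same fit, beside the same shares and medians over all genes. Of 13 neutrophil genes tested, S100a8 alone was called, and the median differences were -0.41, -0.09 and -0.26. Of 10 mast cell and basophil genes, Hdc was higher with the ACD mutant than with MIB control and Cpa3 and Ms4a2 lower with INV16 than with the ACD mutant. Of 10 dendritic cell genes, Tcf4 was higher with INV16 than with MIB control and H2-Aa lower with INV16 than with the ACD mutant. Of 8 megakaryocyte genes, Selp was higher with INV16 and with the ACD mutant than with MIB control, and Vwf lower with INV16 than with the ACD mutant (median -1.07 in that comparison). Of 8 lymphoid genes, Dntt was higher and Nkg7 lower with INV16 than with MIB control; of 10 stem and progenitor genes, Procr and Esam were higher with INV16 and Slamf1 with the ACD mutant; and of 3 erythroid genes none was called. Each of these calls was lost in some fits that left out 1 array (called in 2 to 9 of 11). With the spike-in set as a block, the 4 calls between INV16 and the ACD mutant (Cpa3, Ms4a2, H2-Aa and Vwf) had adjusted p-values of 0.425 to 0.71, and the calls of Tcf4, Dntt, Hdc and Slamf1 ended too (0.0524, 0.0642, 0.0695 and 0.153), while those of S100a8, Selp, Nkg7, Procr and Esam held. Within spike-in set A, of the INV16 calls in these lists S100a8 alone held (0.0328, the others 0.0794 to 0.15); within set B, Hdc and Selp held and Slamf1 did not (0.0337, 0.025 and 0.059).

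INV16 replicate 4 lay outside the range of the other 11 arrays in 24 of 37 members, 12 above and 12 below; among the tested members it was 9 above, 12 below and 8 within, against 73.0% outside for all genes. Its lysozyme signals were the lowest of the 12 arrays, at 7.56 for Lyz1 and 6.54 for Lyz2, and Ctsl, Tlr2, Tlr4, Ccr2 and Cd68 were low too, at 5.47, 5.41, 4.27, 7.46 and 6.78. Fcgr3 and Lgals3 were the highest of the 12 at 10.37 and 11.50. Its C1q chains read 6.25, 4.77 and 5.49 for C1qa, C1qb and C1qc, above all other arrays. Over the members, its difference from the mean of the other INV16 arrays had a median of 0.02, so the members did not shift one way on it. The GAPDH 3′ to 5′ difference, a sign of RNA integrity, was 3.64 on this array, 3.17 on ACD mutant replicate 1 and 1.10 to 1.98 on the others.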

How the data were processed

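RNA of 12 sorted samples was hybridised to Affymetrix mouse arrays after amplification over 2 cycles and biotin labelling, per the labels' protocols. The authors' deposited values are on a log2 scale (2.82 to 14.97); their background correction and normalisation are not given in the sources used here. Of 45101 probe sets, 64 were controls; 34945 carried 1 symbol, 932 several (named for no gene) and the rest none. Each gene was given by its single-symbol probe set of highest mean; a mean above the 40th percentile (5.10) was required. The number of arrays limits the precision. Groups come from the titles. limma 3.58.1 (R 4.3.3) fitted a mean per group to 11 arrays, INV16 replicate 4 apart, with empirical Bayes. Tests were two-sided with Benjamini-Hochberg adjustment over 12918 genes, called under 0.05. The procedure was run on simulated independent values for INV16 against MIB control. Those values held no spike-in sets, so the run cannot show how the sets bear on the calls. Differences are log2. Alternatives were all 12 arrays, quantile normalisation, other filters, the mean of probe sets, 2 groups only, the spike-in set as a block or taken singly, the replicate number as a block, and leaving out each array. The members, lists and spike-in sets were chosen with earlier results of these data known. Genes given in full are members called in any comparison, the 8 identity genes (Cx3cr1, Ccr2, Adgre1, Itgam, Lyz2, Cd14, C1qa, Cd68) and, in each comparison with fewer than 5 calls, the 5 members of smallest p. Of other lists, up to 4 called genes are named; further members were named after their values were seen.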

Additional observations from a re-analysis of the deposited data

Results flagged for a closer look

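A sample was marked where its distance to the nearest of its group exceeded Dixon's critical share of the group's range; chance marks about 1 in 20 groups, and the groups of 3 were not examined. Among the MIB control arrays, Fcgr1 on replicate 4 read 5.34, below 5.52 to 5.57 on the other 4. The other 8 marks were on INV16 replicate 4. It was above the other INV16 arrays for Fcgr3 at 10.37 (others 7.30 to 7.81), C1qa at 6.25 (4.95 to 5.01) and C1qb at 4.77 (3.60 to 3.73). It was below them for Lyz1 at 7.56 (11.26 to 11.94), Lyz2 at 6.54 (9.49 to 9.73), Ctsl at 5.47 (9.52 to 9.93), Cd68 at 6.78 (8.14 to 8.35) and Tlr2 at 5.41 (7.38 to 7.48).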

How the results depend on the processing

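For INV16 against MIB control, limma called 0 members under every alternative run (2 had an unadjusted p under 0.05 as reported). For the ACD mutant against MIB control the count of 1 member became 0 with all 12 arrays and 0 with the spike-in set as a block, and ranged from 0 to 6 when 1 array was left out. For INV16 against the ACD mutant the count of 1 became 0 with all 12 arrays, 0 with the spike-in set as a block and 8 with only the 2 groups fitted, and ranged from 0 to 6 when 1 array was left out; no spike-in set holds both groups without INV16 replicate 4, so no value within a set was run. Over all genes, the 219 called for INV16 against MIB control became 20 with all 12 arrays, 93 with only the 2 groups and 30 within spike-in set A (29 to 332 leaving out 1 array). The 220 for the ACD mutant against MIB control became 0 with all 12 arrays, 72 with only the 2 groups, 20 with the spike-in set as a block and 42 within set B (3 to 591). The 267 for INV16 against the ACD mutant became 5 with all 12 arrays, 173 with the mean of probe sets, 840 with only the 2 groups and 0 with the spike-in set as a block (36 to 505).

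Deviations of same-numbered arrays from their group means correlated at -0.33 to 0.09. With only 3 arrays in the INV16 and ACD mutant means, these correlations cannot decide whether same-numbered arrays were prepared together. With the replicate number as a block (replicate block), 1, 24 and 380 genes were called in the 3 comparisons, and 0, 1 and 7 members. The 1 member was Lgals3 (3.19), and Cd33 was not called (0.55). Against MIB control, this fit rests on MIB control replicate 3 alone. The other control arrays share their number with no INV16 or ACD mutant array. With 1 control array, no conclusion is drawn from its calls or sign changes against MIB control. For INV16 against MIB control the members' median moved from -0.03 to 0.30 and 13 of 29 changed sign, among them Lyz1 0.11, Lyz2 0.18 and Adgre1 0.53; for the ACD mutant against MIB control 4 did, among them Cx3cr1 -0.18 and Ccr2 -0.21.

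No member called before or after changed sign under any alternative. With the spike-in set as a block, 3, 7 and 8 of the 29 members changed sign in the 3 comparisons, the largest being Fcgr3 from -0.65 to 0.57 between INV16 and the ACD mutant; with all 12 arrays 7, 0 and 3 did, among them Ctsl from 0.22 to -0.84 for INV16 against MIB control. Of the genes given in full, for INV16 against MIB control, Adgre1 was 0.17 with all 12 arrays and -0.12 to 0.07 leaving out 1 array, and Cd14 -0.10 to 0.59. For the ACD mutant against MIB control, Cx3cr1 was -0.11 with the spike-in set as a block, -0.11 within set B and -0.03 to 0.15 leaving out 1 array; Ccr2 was -0.10 with the mean of probe sets and -0.08 to 0.34 leaving out 1 array. For INV16 against the ACD mutant, Cd14 was 0.05 after quantile normalisation and -0.45 to 0.23 leaving out 1 array, and Cd68 was 0.01 after quantile normalisation, 0.01 with the spike-in set as a block and -0.32 to 0.17 leaving out 1 array. The cause of these changes was not tested. Signal over background limits the 8 members below the filter, and Cx3cr1, which lies near it.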
